A study of Mus musculus with 28 samples.

Results

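Neurotrophins are secreted proteins that keep neurons of the peripheral nervous system alive and shape their axons, and Schwann cells and other cells of the nerve both make and bind them. The genes described here are 2 neurotrophin ligands, Bdnf (brain-derived neurotrophic factor) and Ntf3 (neurotrophin-3), and 3 receptors, Ngfr (the low-affinity receptor p75), Ntrk2 (TrkB) and Ntrk3 (TrkC). They were chosen by name, as 5 of the 41605 gene identifiers in the table of counts. All 5 members passed the filter on low counts and were tested among 17700 genes. Bdnf passed it only through its E13 libraries, so its difference between E13 and other stages was bound to appear and is given as a description with no test.

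Each neurotrophin is made as a longer precursor that is cut to the mature factor. Mature Bdnf binds TrkB and mature Ntf3 binds TrkC, both of which are tyrosine kinases that signal through adaptor proteins, whereas p75 binds all neurotrophins and, together with sortilin-family receptors, also their uncut precursors. In peripheral nerve, p75 is a known surface protein of Schwann cell precursors, of immature Schwann cells and of the adult Schwann cells that do not form myelin, and both TrkB and TrkC exist as full-length kinases and as truncated forms without the kinase domain.

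The study sequenced poly-A RNA of peripheral nerve from wild-type C57BL/6J mice at 7 stages with 4 libraries each, 28 libraries in all. The labels name 2 embryonic days, E13 and E17, and postnatal days 1, 5, 14, 24 and 60, written here with a P. They drop the fraction of a day that the paper gives for both embryonic ages. By the paper's account, each stage held samples from male and from female mice. The mice carried no transgene, received no treatment and were not perfused. Each E17 library combined the sciatic nerves of 2 embryos, and each postnatal library held those of 1 mouse, with the epineurium and perineurium stripped off as far as possible. The E13 libraries are labelled as sciatic nerve too, but according to the methods each was pooled from various nerves of 2 embryos, and the removal of outer layers is described from E17 on. In any comparison with E13, age therefore cannot be told apart from the kind of nerve taken and its dissection.

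The libraries held between 13899895 and 37662780 counts. Levels are given as CPM, that is, counts scaled to a common library total, with library sizes scaled by the trimmed mean of M values (TMM). A difference counted as a change when its Benjamini-Hochberg adjusted p in edgeR's quasi-likelihood test over the 17700 genes was under 0.05, and the gene was called when the difference was at least 2-fold as well. Among the E13 libraries, replicates 1 and 4 departed from the stage mean along the GC content of genes, by -1.02 and 0.804 log2 units per 10 percentage points of GC, whereas 25 of the other libraries had slopes between -0.18 and 0.219 and P1 replicate 1 had -0.473. Every E13 library was also above every later library in the summed markers of sensory, sympathetic and motor neurons, erythroid cells, macrophages and skeletal muscle, although single markers could be higher later. The summed level of 10 sensory neuron markers ran from 487 to 910 CPM at E13, with all 10 above 3 counts, and from 11.8 to 109 CPM in the later libraries, where Prdm12, Tlx3 and Scn10a did not exceed 3 counts in any library while Calca reached 3.60 ± 1.38 CPM at P60 against 2.59 ± 0.428 CPM at E13. Summed markers of sympathetic neurons were at 201 ± 187 CPM at E13 and at 5.48 ± 2.07 CPM at E17 (SD, n = 4, as for all means here), those of motor neurons at 26.5 ± 4.89 and 1.74 ± 0.265 CPM, and those of erythroid cells at 9010 ± 8772 and 28.8 ± 10.3 CPM. Skeletal muscle markers were at 673 CPM in E13 replicate 2 and between 29.4 and 69.7 CPM in the other E13 libraries. The 5 macrophage markers summed to between 297 and 379 CPM at E13 and to at most 217 CPM later, and 4 of 5 were called as lower from E13 to E17. The part of these cells in the differences between E13 and later stages was not tested.

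The members lie on separate chromosomes of the mouse genome (GRCm38, GENCODE M21). Bdnf (ENSMUSG00000048482) is on the plus strand at chr2:109674700-109727007, Ntf3 (ENSMUSG00000049107) on the minus strand at chr6:126101412-126166910 and Ngfr (ENSMUSG00000000120) on the minus strand at chr11:95568818-95587735. Ntrk2 (ENSMUSG00000055254) is on the plus strand at chr13:58806569-59133970 and Ntrk3 (ENSMUSG00000059146) on the minus strand at chr7:78175959-78738012. Counts were summed over all exons of a gene, so full-length and truncated forms of TrkB and TrkC are counted together. Bdnf shares 896 exonic bases with the antisense gene Gm45346, which drew 15 counts over all libraries against 245 for Bdnf, and how the counting treated strand is not given in the sources used here. The other members share no exonic bases with another gene.

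Promoters from RefSeq (GRCm38.p6) matched 4 members, all but Ntrk3. The windows of the p75 and TrkB genes are shown, from 250 to 51 bases before the start, because their transcripts took opposite courses after E17. Capitals mark GC boxes (GGGCGG or CCGCCC) and E-boxes (CANNTG), searched on both strands. The first lies at chr11:95587749-95587948 on the minus strand and the second at chr13:58806319-58806518 on the plus strand.
Ngfr: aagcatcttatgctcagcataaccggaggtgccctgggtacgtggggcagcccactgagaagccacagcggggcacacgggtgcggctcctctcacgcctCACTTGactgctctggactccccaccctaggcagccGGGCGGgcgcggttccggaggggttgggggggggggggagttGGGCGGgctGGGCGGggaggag
Ntrk2: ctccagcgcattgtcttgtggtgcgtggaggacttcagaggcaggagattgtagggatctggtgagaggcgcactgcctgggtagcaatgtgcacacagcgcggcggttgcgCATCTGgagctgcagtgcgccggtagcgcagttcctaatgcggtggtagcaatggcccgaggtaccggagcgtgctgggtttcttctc
The Ngfr window held 3 GC boxes and 1 E-box at a GC content of 70.0%, and the Ntrk2 window 0 GC boxes and 1 E-box at 61.0%. Of 32851 promoter windows of the same length, 24.6% held a GC box and 59% an E-box. These letter matches are a description of the windows and not a measure of any factor's binding.

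Ntf3, Ngfr, Ntrk2 and Ntrk3 changed along the timeline, in a test in which 88.8% of all genes did, with adjusted p-values between 4.29e-18 for Ngfr and 2.21e-07 for Ntf3. Both ligands were highest at E13 and were read from a handful of counts in later nerves. Ngfr and Ntrk3 peaked at E17, whereas Ntrk2 was lowest from E17 to P5 and higher again from P14 on. From E13 to E17, Bdnf being left aside, Ngfr and Ntrk3 were called as higher and Ntf3 as lower, against a background of 35.5% of all genes (14.2% higher and 21.2% lower). From E17 to P1 only Ngfr was called (background 11.7%), from P1 to P5 only Ntrk3 (5.84%), and from P5 to P14 Ngfr and Bdnf (12%). The Bdnf call rests on 13 counts against 0, in a gene tested only through its E13 libraries. It was lost in 6 fits with 1 library left out and is not read as a change. In edgeR's test, 0 members were called from P14 to P24 (2.65%) and 0 in the last step, P24 to P60 (5.96%). At an unadjusted p under 0.05 there were 2 and 2 members, and DESeq2 called 1 and 0. Between P1 and P60, Ngfr and Ntrk3 were called, both as lower, where 35.5% of all genes were called, 20.3% as higher and 15.2% as lower. With no fold minimum, the 4 members other than Bdnf changed from E13 to E17 (62.2% of all genes), and the counts over all members were 2 from E17 to P1 (29.5%), 2 from P1 to P5 (17.6%), 4 from P5 to P14 (29.6%), 1 over the next step to P24 (5.45%), 2 over the last step (16.1%) and 3 between P1 and P60 (61.1%).

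**Figure D1:**
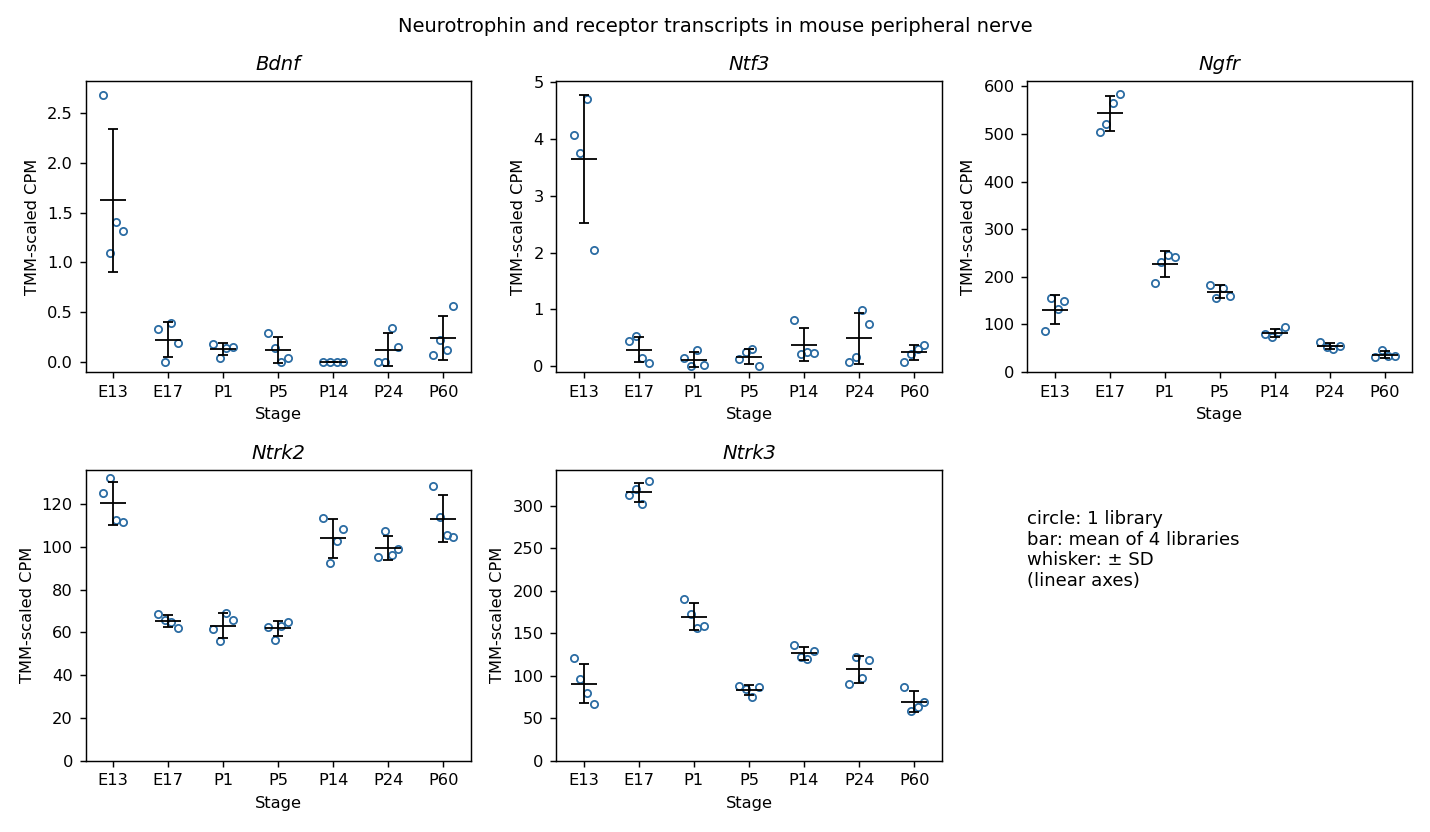
Level of each member in TMM-scaled CPM (linear axes, each panel with its own range) in the 28 libraries by stage; circles are libraries, bars the mean of 4 and whiskers the SD. Bdnf and Ntf3 are highest in the E13 libraries, Ngfr and Ntrk3 in the E17 libraries, and Ntrk2 is between 56.1 and 69.3 CPM from E17 to P5 and between 92.2 and 132 CPM at all other stages.

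Bdnf, the ligand of TrkB, was detected chiefly in the E13 libraries. Replicates 1 to 4 of E13 held 81, 27, 39 and 25 counts, or 2.68, 1.09, 1.41 and 1.32 CPM. At E17 the libraries held 6, 0, 10 and 3 counts, so the groups did not overlap. The mean level was 1.62 ± 0.718 CPM at E13 and 0.227 ± 0.173 CPM at E17 (log2 fold change -2.77 ± 0.73 SE). In bulk tissue, fewer cells that make a transcript and less of it per cell cannot be told apart. Without E13 replicates 1 and 4 the log2 fold change was -2.39, and with the GC trend removed it was -2.69.

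After E17, Bdnf stayed near the limit of detection. The libraries held 5, 1, 4 and 5 counts at P1 and 7, 5, 0 and 1 at P5, and no difference passed the test. At P14 all 4 libraries were at 0, which allows a level of up to 0.0341 CPM (3 counts over the 4 libraries). The mean at P5, 0.118 ± 0.131 CPM, was at least 3.46-fold higher than the P14 level at this floor, and at least 1.76-fold without P5 replicate 1, and the test called the fall (adjusted p = 0.0449, log2 fold change fitted as -4.47 ± 1.66). That call was lost when any 1 of P5 replicates 1 and 2 or of the 4 P14 libraries was left out (adjusted p from 0.0757 to 0.131), and P5 replicate 3 was itself at 0. Bdnf was read again at P24, with 0, 0, 7 and 4 counts, and at P60, with 1, 3, 2 and 9 counts. The difference between P14 and P24 did not pass edgeR's test (adjusted p = 0.123) but passed that of DESeq2 (adjusted p = 0.042). The P60 mean of 0.245 ± 0.222 CPM lay next to that of E13 in the order of stages, and the E13 mean was higher (log2 difference 2.68 ± 0.75). Among the other 6 stages, ordered by these same levels, P5 and P14 were the only neighbours that passed the test, with the call that did not hold.

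Ntf3, the ligand of TrkC, had the same early course from higher counts. The E13 libraries held 123, 93, 130 and 39 counts, or 4.07, 3.76, 4.69 and 2.05 CPM, and the E17 libraries 8, 10, 4 and 1. No E17 library reached the lowest E13 library. The mean fell from 3.64 ± 1.13 to 0.296 ± 0.223 CPM (log2 fold change -3.61 ± 0.69, adjusted p = 6.35e-05), and without E13 replicates 1 and 4 the log2 fold change was -3.81.

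From E17 on, no pair of adjacent stages passed the test for Ntf3. Counts were 4, 0, 8 and 1 at P1 and 3, 9, 7 and 0 at P5. In the P14 libraries they were 16, 4, 6 and 6, in those of P24 1, 3, 20 and 20, and in those of P60 1, 3, 5 and 6. The libraries of each stage overlapped with those of the next. At P24 the level was 0.0788 and 0.157 CPM in replicates 1 and 2 but 0.988 and 0.752 CPM in replicates 3 and 4. P24, the highest of the later stages at 0.494 ± 0.446 CPM, stayed below E13 (log2 difference 2.79 ± 0.65, adjusted p = 0.000394). Summed over the 4 libraries, the exact Poisson 95% interval, which covers counting error only, was 3.42 to 4.19 CPM at E13 and 0.407 to 0.751 CPM at P24.

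Compared per kilobase (kb) of exon, Ntf3 was the more abundant ligand in every E13 library. The log2 ratio of Ntf3 to Bdnf was 2.46, 3.62, 3.58 and 2.49 there, with a mean of 3.04 ± 0.65. In later stages the ratio depended on single counts and was not read.

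Ngfr, which encodes p75, rose 4.14-fold between E13 and E17 and then declined at every step to P60. The rise went with that of 6 Schwann cell markers, all called as higher, whose summed level was between 285 and 607 CPM at E13 and between 2200 and 2394 CPM at E17. It also went with that of 5 proliferation markers, all called as higher (summed level from 379 to 510 CPM at E13 and from 2134 to 2225 CPM at E17). Perineurial, endothelial and epineurial cell markers each had 2 of 5 called as higher, where 14.2% of all genes were. Perineurial sums were 39.8 to 74.3 CPM at E13 and 245 to 284 CPM at E17. Endothelial sums were 159 to 207 and 258 to 315 CPM, and epineurial sums overlapped. Summed cartilage markers went from between 17.9 and 41.8 to between 62.3 and 73.6 CPM, with 1 called as higher and 1 as lower. The part of these cells in the rise was not tested. The E13 libraries were at 86.9, 156, 133 and 150 CPM and the E17 libraries at 504, 522, 565 and 583 CPM. All E17 libraries were above those of every other stage. The mean rose from 131 ± 31.1 to 544 ± 37.1 CPM (log2 fold change 2.05 ± 0.15, adjusted p = 5.69e-12), and without E13 replicates 1 and 4 the log2 fold change was 1.92. E13 replicate 1, which was lowest in Ngfr, was also the library whose deviations fell with GC content, and Ngfr has the highest exonic GC content of the members (58.6%). With the GC trend removed, the log2 fold change was 2.07.

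The first and largest step down spanned birth. Ngfr was at 186, 231, 246 and 241 CPM at P1, and all libraries were below those of E17 (log2 fold change -1.27 ± 0.15, adjusted p = 1.61e-07). At P5 it was at 183, 155, 176 and 160 CPM, a step that was small (log2 fold change -0.42 ± 0.15, adjusted p = 0.0445) although the libraries did not overlap. The adjusted p for this step exceeded 0.05 when any library other than P1 replicate 1 was left out (0.0548 to 0.123), and it was 0.0508 with the replicate number as a block.

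Ngfr fell again between P5 and P14. The P14 libraries were at 79.3, 73.7, 84.7 and 93.8 CPM, all below those of P5 (log2 fold change -1.02 ± 0.15, adjusted p = 5.17e-06). The change sat at the 2-fold limit of a call, and without P5 replicate 1 or P14 replicate 2 it was -0.98 or -0.97. At P24 the libraries were at 63, 52.1, 49.4 and 54.7 CPM and at P60 at 30.9, 47.2, 33.3 and 33.5 CPM. Neither group overlapped with the one before it. The log2 fold change was -0.60 ± 0.15 for each of these steps (adjusted p = 0.0127 and 0.00585), and the first of them had an adjusted p of 0.0606 without P14 replicate 4 and 0.0571 without P24 replicate 3. Over postnatal life as a whole, Ngfr fell from 226 ± 27.3 CPM at P1 to 36.2 ± 7.39 CPM at P60 (log2 fold change -2.64 ± 0.16, adjusted p = 4.74e-14). E13 lay between P5 and P14 in the order of levels, and it differed from both (adjusted p = 0.033 and 0.000259) although its libraries overlapped with theirs.

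The decline of Ngfr was compared with 2 other measures that change along the timeline. Against Sox10, a transcription factor that marks the Schwann cell lineage, the ratio of Ngfr per kb had a geometric mean of 1.13 at E13, where the libraries ranged from -0.30 to 1.17 on the log2 scale and so spanned those of E17. It was 1.48 at E17, 0.583 at P1 and 0.409 at P5. It was 0.157 at P14, 0.125 at P24 and 0.0714 by P60. The P60 libraries ranged from -4.04 to -3.59 on the log2 scale of this ratio and the E17 libraries from 0.53 to 0.58. The rise of Ngfr from E13 to E17 was thus within the spread of the E13 libraries when set against Sox10, whereas the P60 libraries lay below those of all other stages. The summed level of 5 proliferation markers (Mki67, Top2a, Ccnb1, Cdk1 and Birc5) moved in the same order as Ngfr from E17 on, from 2174 ± 40.1 CPM at E17 over 1121 ± 189, 597 ± 58.5, 130 ± 20.5 and 50.3 ± 7.42 to 5.26 ± 0.822 CPM at P60. The part of cell division, or of the share of any Schwann cell type, in the level of Ngfr was not tested.

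Ntrk2, which encodes TrkB, had a trough from E17 to P5 and otherwise a narrow range. The E13 libraries were at 125, 132, 113 and 111 CPM and the E17 libraries at 68.8, 65.9, 64.9 and 61.9 CPM. The groups did not overlap, and Ntrk2 fell from 120 ± 10.1 to 65.4 ± 2.86 CPM (log2 fold change -0.88 ± 0.09, adjusted p = 4.57e-09). This fall was under 2-fold and so was not called. With library sizes not scaled by TMM it was called at -1.13, but that scaling moved the median of all genes from -0.08 to -0.33, and relative to this median the change was -0.80 under both.

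Around birth no difference in Ntrk2 passed the test. The P1 libraries were at 61.8, 56.1, 69.3 and 65.7 CPM and the P5 libraries at 62.7, 56.5, 63.2 and 65.1 CPM. They overlapped with each other and with those of E17, and the log2 fold changes were -0.05 ± 0.09 from E17 to P1 and -0.03 ± 0.09 from P1 to P5 (adjusted p = 0.744 and 0.873). By P14 the level had risen to 113, 92.2, 103 and 108 CPM, above all P5 libraries (log2 fold change 0.75 ± 0.09, adjusted p = 4.18e-07). Against Sox10 per kb the libraries of these stages overlapped, from -5.40 to -4.84 at P5 and from -5.03 to -4.43 at P14 on the log2 scale. It then stayed, at 95.2, 108, 96.2 and 99.2 CPM at P24 and 128, 114, 105 and 105 CPM at P60. Neither of these steps passed the test (adjusted p = 0.844 and 0.191). P60 was higher than P1 by 0.84 ± 0.09 on the log2 scale (adjusted p = 1e-08), under the 2-fold limit.

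In the order of its levels, Ntrk2 fell into an upper set of stages (E13, P60, P14 and P24) and a lower set (E17, P1 and P5). Neighbours within a set did not pass the test (adjusted p from 0.357 to 0.873), whereas P24 and E17, the neighbours across the gap, did (log2 difference 0.61 ± 0.09, adjusted p = 2.31e-06) and did not overlap. The order was taken from these same levels, so neighbours are the closest stages and their tests do not show that a set holds a single level. Within the upper set, the E13 libraries (111 to 132 CPM) all lay above those of P24 (95.2 to 108 CPM). For E13 against P60 the log2 difference was 0.09, with a 95% interval from -0.09 to 0.27. The step from P5 to P14 coincided with a rise in markers of the outer nerve layers. The summed level of 5 perineurial cell markers went from 202 ± 19.9 to 537 ± 47.2 CPM, with 4 of 5 called as higher, and that of 5 epineurial cell markers from 24.4 ± 6.98 to 92.4 ± 14.2 CPM, with 5 of 5 called (12% of all genes were called, in either direction). Their part in the level of Ntrk2 was not tested.

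Ntrk3, which encodes TrkC, rose to a peak at E17, fell until P5, came back in part at P14 and fell again to P60. The E13 libraries were at 121, 96.1, 79.4 and 67.1 CPM and the E17 libraries at 313, 320, 303 and 329 CPM. All E17 libraries were above those of every other stage. The mean rose from 90.8 ± 23.2 to 316 ± 11 CPM (log2 fold change 1.80 ± 0.14, adjusted p = 2.43e-11). E13 replicate 1 was the highest and E13 replicate 4 the lowest of the E13 libraries, and without both the log2 fold change was 1.86. Schwann cell markers rose over the same step, as given for Ngfr, and the ratio of Ntrk3 to Sox10 per kb had a geometric mean of 0.0894 at E13 and 0.0982 at E17. Its E13 libraries, from -4.45 to -1.48 on the log2 scale, spanned those of E17.

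After the peak Ntrk3 fell in 2 steps. It was at 190, 173, 156 and 159 CPM at P1 (log2 fold change -0.90 ± 0.14, adjusted p = 1.43e-05) and at 87.5, 84.2, 75.4 and 87.2 CPM at P5 (log2 fold change -1.02 ± 0.14, adjusted p = 5.52e-06). The libraries of the 3 stages did not overlap. The second step was called, but at -0.95 without P1 replicate 1 and -0.98 without P5 replicate 3 it was under 2-fold. At P14 the libraries were at 136, 122, 119 and 130 CPM, above those of P5 (log2 fold change 0.60 ± 0.14, adjusted p = 0.0016). Against Sox10 per kb they overlapped, from -5.69 to -5.06 at P5 and from -5.46 to -4.81 at P14 on the log2 scale, and the geometric mean of the ratio was 0.0501 at P1, 0.0279 at P24 and 0.0157 at P60.

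The later levels of Ntrk3 were 90.8, 123, 97.5 and 119 CPM at P24 and 87.1, 58.5, 63.4 and 69.4 CPM at P60. The libraries of P24 overlapped with those of P14 (adjusted p = 0.44), and those of P60 were all below those of P24 (log2 fold change -0.63 ± 0.14, adjusted p = 0.00215). From P1 to P60 Ntrk3 fell from 170 ± 15.7 to 69.6 ± 12.5 CPM (log2 fold change -1.29 ± 0.14, adjusted p = 1.1e-08). In the order of levels E17 differed from P1 (adjusted p = 1.43e-05) and P1 from P14 (adjusted p = 0.0137), while the neighbours from P14 down to P60 did not pass the test (adjusted p from 0.117 to 0.462). Neighbours in this order are the closest stages, so this does not show a single level from P14 to P60. All P14 libraries (119 to 136 CPM) lay above those of P60 (58.5 to 87.1 CPM).

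**Figure D2:**
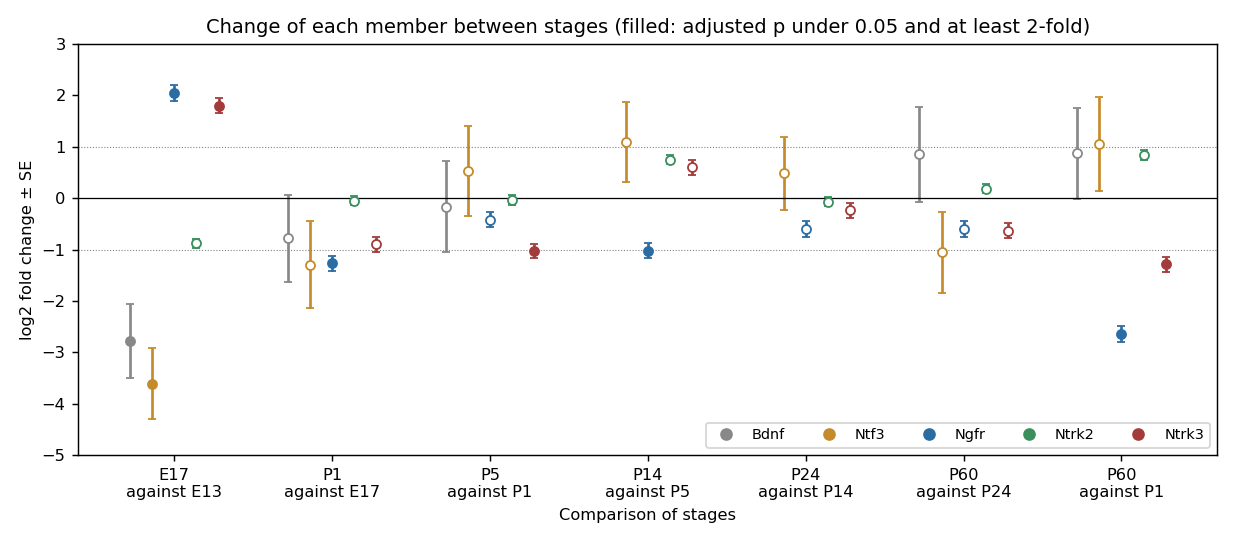
Log2 fold change with SE (edgeR, n = 4 libraries per stage) of each member for the 6 pairs of adjacent stages and for P60 against P1; filled circles were called (for Bdnf from E13 to E17, a description only), dotted lines mark 2-fold, and Bdnf is left out where P14, at 0 counts in all libraries, enters. Ngfr is below 0 in every comparison after E17, and Ntrk2 and Ntrk3 lie above 0 from P5 to P14.

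The balance between the Trk receptors moved toward Ntrk3 between E13 and E17 and back afterwards. Per kb of exon within each library, the log2 ratio of Ntrk3 to Ntrk2 was -0.70, -1.11, -1.15 and -1.38 at E13 and 1.54, 1.63, 1.58 and 1.77 at E17. On this scale Ntrk2 was the more abundant transcript in all E13 libraries and Ntrk3 in all E17 libraries. At P1 Ntrk3 still led per kb, with a mean log2 ratio of 0.78 ± 0.24. From P5 on Ntrk2 led per kb in every library, with -0.21 ± 0.13 (P5), -0.36 ± 0.08 (P14), -0.54 ± 0.15 (P24) and -1.36 ± 0.18 (P60). The libraries of E17, P1 and P5 did not overlap with each other, and those of P60 lay below those of all stages but E13. In CPM, not divided by the exon length (30170 bases for Ntrk3 and 19292 for Ntrk2), the direction turned at P5, P14 and P24, with mean log2 ratios of 0.43 ± 0.13, 0.29 ± 0.08 and 0.10 ± 0.15, and was the same at the other stages. A ratio within 1 library does not depend on the scaling between libraries, and it is per length of all annotated exons, so it does not give the ratio of any pair of isoforms.

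The p75 transcript outweighed the sum of TrkB and TrkC per kb in all libraries but one. The log2 ratio of Ngfr to Ntrk2 plus Ntrk3 was 2.02 ± 0.52 at E13, 3.50 ± 0.11 at E17, 2.87 ± 0.25 for P1 and 3.03 ± 0.12 for P5. It then dropped to 1.32 ± 0.14 at P14, 0.87 ± 0.24 at P24 and 0.35 ± 0.36 at P60. Ngfr was on geometric average 11.4 times the summed Trk level at E17, 2.50 times at P14 and 1.27 times at P60. The exception was P60 replicate 1, with a log2 ratio of -0.09. All P14 libraries, up to 1.46, were below all P5 libraries, from 2.89. The direction depends on the division by exon length (3446 bases for Ngfr). In CPM the mean log2 ratio was above 0 only at E17 (0.51 ± 0.11) and P5 (0.21 ± 0.13), and it went to -1.48 ± 0.14 at P14 and -2.35 ± 0.38 at P60.

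**Figure D3:**
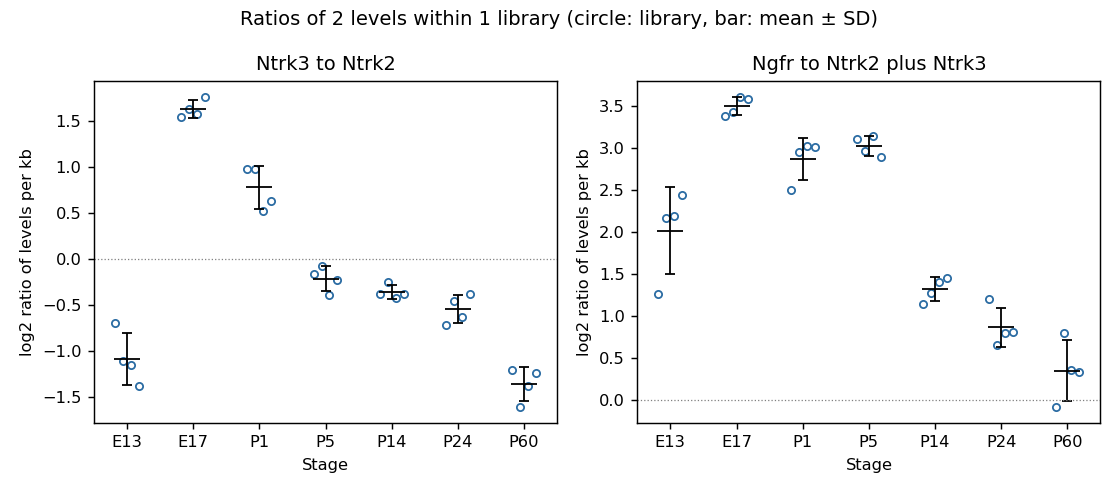
Log2 ratio of levels per kb of exon within each library by stage, for Ntrk3 to Ntrk2 on the left and for Ngfr to the sum of Ntrk2 and Ntrk3 on the right; circles are libraries and bars the mean ± SD of 4. The Trk ratio is above 0 at E17 and P1 and below 0 at all other stages, and the ratio of Ngfr steps down between P5 (3.03) and P14 (1.32).

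The rest of the pathway was described with a list of 50 genes for ligands, receptors, precursor processing and signalling partners, of which 47 were tested. From E13 to E17, 9 rose and 14 fell by at least 2-fold, 48.9% of those tested, where 35.5% of all genes were called. The median log2 fold change of the list was 0.08 and that of all genes -0.08. In later steps 1 was called from E17 to P1 (2.13%, against 11.7% of all genes), 3 from P1 to P5 (6.38%, against 5.84%), 7 from P5 to P14 (14.9%, against 12%), 0 over the next step to P24 (against 2.65%) and 1 in the last step (2.13%, against 5.96%). Between P1 and P60, 8 were higher and 8 lower (34% of those tested, against 35.5%). The 1 gene called from E17 to P1 was Mmp9 (log2 fold change -2.14), a matrix protease, which is named here after its values were seen. It was at 0.971 ± 0.866 CPM at E17 (1 to 30 counts) and 0.209 ± 0.111 CPM at P1 with overlapping libraries, and with 1 library left out the count of list genes called in this step ran from 0 to 2. For the step from P14 to P24, at which edgeR called 0, the unadjusted p was under 0.05 for 8 list genes, and DESeq2 called 1.

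Among the other ligands, Ntf5 (neurotrophin-4), the other ligand of TrkB, was too low to be tested, with 22 counts over the E13 libraries and at most 4 over the libraries of any later stage.

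Neuronal markers moved at the step at which Ntf3 fell. From E13 to E17, 10 of 10 sensory, 6 of 6 sympathetic and 5 of 5 motor neuron markers were called as lower, where 21.2% of all genes were. So were 5 of 5 erythroid, 7 of 8 skeletal muscle and 4 of 5 macrophage markers. At E17, 7 of the 10 sensory neuron markers still exceeded 3 counts in a library. From P1 to P60, 5 of 10 were called as higher, among them Calca, where 20.3% of all genes were. The summed level of the sensory neuron markers went from 20.0 ± 6.14 to 91.1 ± 12.6 CPM. Over the libraries after E13 the lowest level of Ntrk2 was 56.1 CPM and that of Ntrk3 58.5 CPM. The part of neurons or their axons in the levels of the members was not tested.

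The sortilin family, Vps10-domain receptors that bind neurotrophin precursors or sort Trk receptors, split by member. From E13 to E17 Sorcs1 rose from 54.4 ± 20.5 to 220 ± 12.0 CPM and Sorcs2 from 66.5 ± 24.3 to 280 ± 15.5 CPM (log2 fold change 2.02 ± 0.17 and 2.08 ± 0.20, adjusted p = 7.38e-11 and 9.71e-10). Sorl1 fell from 47.2 ± 4.67 to 7.26 ± 0.613 CPM and Sorcs3 from 11.2 ± 2.21 to 0.172 ± 0.0853 CPM (log2 fold change -2.70 ± 0.22 and -6.03 ± 0.44, adjusted p = 5.7e-11 and 3.64e-12). Sort1 (sortilin itself, a partner of p75) was at 145 ± 11.6 CPM at E13 and between means of 284 and 351 CPM afterwards. After E17 Sorcs2 was at 170 ± 25.4 CPM at P1, 93.3 ± 7.50 CPM at P5, 58.5 ± 6.33 CPM at P14 and 76.3 ± 13.8 CPM at P24, and it was lower at P60 than at P1 (log2 fold change -1.49 ± 0.20, adjusted p = 2.55e-07), whereas Sorcs1 reached 433 ± 8.11 CPM at P14.

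Of the remaining list genes, the largest called rises included those of proteases and of a receptor. Adam17, a protease that cuts p75 and other surface proteins, rose from 53.6 ± 19.5 to 227 ± 9.31 CPM between E13 and E17 (log2 fold change 2.08 ± 0.17, adjusted p = 2.46e-11). Pcsk6, a convertase of the family that cuts precursor proteins, rose from 2.91 ± 0.639 CPM at P1 to 9.63 ± 1.14 at P5, 74.5 ± 3.02 at P14 and 125 ± 14.6 at P60 (P60 against P1, log2 fold change 5.43 ± 0.24, adjusted p = 1.33e-16). It shares 156 exonic bases on the same strand with Gm45213, so a part of its counts is uncertain, and Adam17 shares 311 with Iah1 on the opposite strand. Tnfrsf19 (TROY), a relative of p75 that can stand in for it beside the Nogo receptor, was highest at E13 and fell from 40.6 ± 5.56 to 0.961 ± 0.083 CPM by E17 (log2 fold change -5.40 ± 0.26, adjusted p = 1.41e-15). It then rose from 1.15 ± 0.477 to 4.25 ± 0.652 CPM between P1 and P5 (log2 fold change 1.88 ± 0.24, adjusted p = 1.76e-06) and to 10.9 ± 2.02 CPM at P14 (log2 fold change 1.36 ± 0.22, adjusted p = 2.01e-05). Mmp3, another matrix protease, was at 0 counts in all P1 libraries and at 1.74 ± 1.74 CPM at P60, at least 64.4-fold above a P1 level at the floor of 3 counts over the 4 libraries. P60 replicate 4 alone was at 4.33 CPM, and without it the bound was 32.3-fold. Its step from P5 to P14 passed the test (log2 fold change 3.23 ± 1.04, adjusted p = 0.0232) with overlapping libraries.

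The largest called falls after birth were those of signalling partners. Shc3, a Trk adaptor, fell from 2.50 ± 0.345 to 0.859 ± 0.358 CPM between P5 and P14 (log2 fold change -1.51 ± 0.32, adjusted p = 0.000633) and was lower at P60 than at P1 (-2.55 ± 0.35, adjusted p = 5.07e-07). Shc2, its relative, fell from 6.01 ± 1.88 to 2.94 ± 1.00 CPM between P24 and P60 (log2 fold change -1.03 ± 0.26, adjusted p = 0.00724), and this call, the 1 of that step, was lost without P24 replicate 4, P60 replicate 2 or P60 replicate 3 (0 list genes called). Bex1, which binds the intracellular part of p75, fell from 1.66 ± 0.255 CPM at P1 to 0.128 ± 0.134 CPM at P60 (log2 fold change -3.58 ± 0.51, adjusted p = 7.6e-07). It shares 223 exonic bases with Tceal7 on the opposite strand. Of the 16 Trk adaptors and effectors tested, 1 was called as higher and 3 as lower from P1 to P60, and of the 10 intracellular partners of p75, 0 and 2, where 20.3% of all genes were called as higher and 15.2% as lower.

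**Figure D4:**
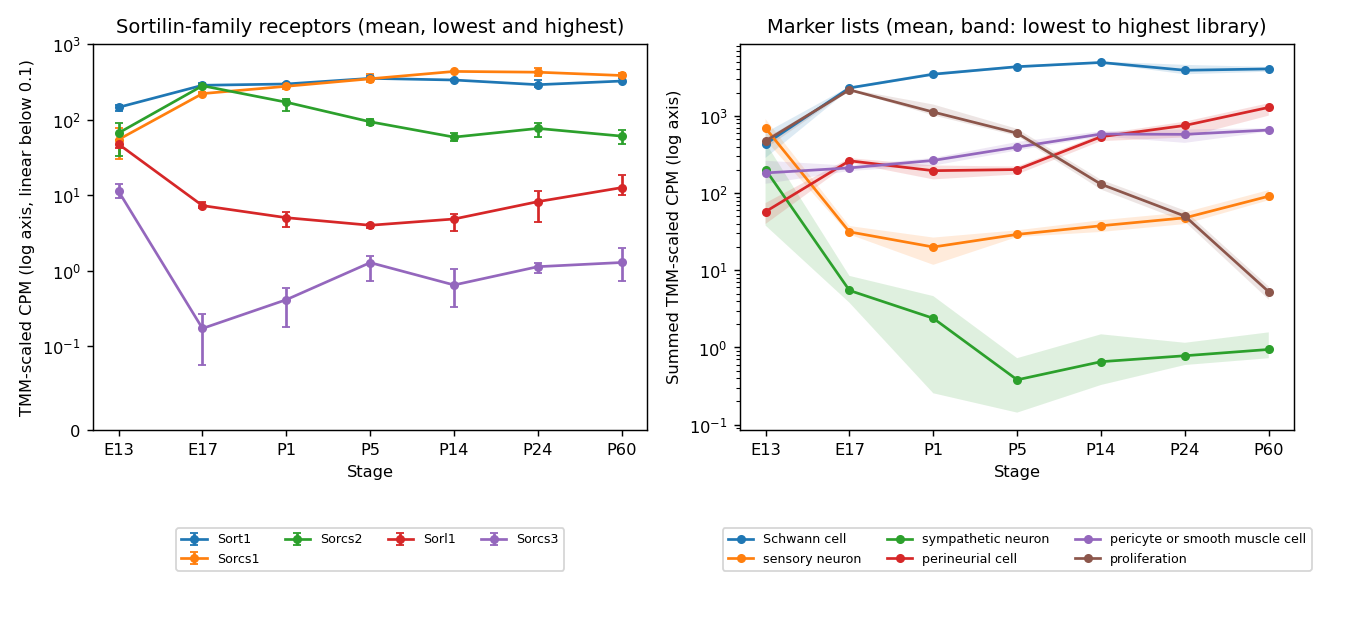
Left, mean level in TMM-scaled CPM of the sortilin-family receptors by stage, with whiskers from the lowest to the highest of 4 libraries (log axis, linear below 0.1); right, summed TMM-scaled CPM of marker lists (log axis, points are means, bands run from the lowest to the highest library). Sorcs3 drops by E17 with the neuron markers, Sorcs2 peaks at E17, and the proliferation markers fall from 2174 to 5.26 CPM between E17 and P60 while Schwann cell markers lie between 2200 and 5059 CPM.

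Genes whose log2 CPM over the 28 libraries ran most like that of a member were found by Pearson's r among 11375 protein-coding genes for the ligands and 11374 for the receptors. For Ngfr these were Ckap4 (r = 0.977), Dennd2a (0.976) and Tedc1 (0.975). For Ntrk3 they were Sema3c (0.966), which encodes a secreted semaphorin that guides axons, Gcnt1 (0.926) and Bche (0.918). For Ntrk2 they were Plekha6 (0.940), Jakmip2 (0.932) and Masp1 (0.925). The ligands had weaker matches, Gfod1 (0.882) and Nxph1 (0.878) for Ntf3 and Tmem169 (0.858), Elavl4 (0.854) and Nova1 (0.851) for Bdnf. Both ligands were highest at E13 and near the limit of detection later, so genes high at E13 were bound to rank high for them. The libraries of a stage share their age, so these values rest on 7 stages. Without E13, over 24 libraries, Sema3c stayed the closest gene to Ntrk3 (r = 0.978), and none of the other 13 genes named here remained among the 3 closest of its member. The Ngfr list then read Chd7, Dclk1 and Ube2s (0.990, 0.990 and 0.989). For the ligands the highest r without E13 was 0.660 for Bdnf and 0.683 for Ntf3.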

How the data were processed

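Per the labels and methods, poly-A RNA of 28 nerve samples was made into stranded libraries and sequenced single-end, and the authors trimmed the reads, aligned them with STAR 2.6.1c and used featureCounts for counting. The deposited values are raw counts, not normalized. The processing notes name the build as GRCm38.p5 and the methods print a human build name, and the treatment of strand and of reads with several matches is not given in the sources used here. Symbols, coordinates and GC content came from GENCODE M21 (41519 of 41605 identifiers matched, 99.79%).

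Counts were filtered with filterByExpr (17700 genes), scaled by TMM and fitted in edgeR 4.0.16 (R 4.3.3) by glmQLFit with robust estimation, with all 28 libraries in 1 fit and stage as the only term. An SE is the size of a log2 fold change over the square root of its F. P-values were adjusted over all 17700 genes and measure the spread between the 4 libraries of a stage. The total counts limit the precision of Bdnf, Ntf3 and Ntf5, and not that of the receptors. The script was tested on simulated data.

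No replicate pair held counts that agreed within sampling noise (chi-square per degree of freedom from 5.245 to 296.2 over 42 pairs). This measure ran from 43.23 to 296.2 at E13 and from 5.245 to 8.119 at E17, so tests against E13 may understate the spread there. Ratios within a library had 0.5 counts added. From the pathway list, Ntf5 and the sortilin family were named by level, and for each comparison the 2 largest called rises and falls among genes whose higher stage averaged 1 CPM or more. Genes of like pattern were the 3 with the highest Pearson's r of log2 CPM (prior count 2) among protein-coding genes averaging 10 CPM or more in a stage. Some genes that these rules name are not reported here. The members, lists and tests were chosen with earlier results of these data known. Alternatives were DESeq2 1.42.0 and its size factors, library size without scaling, 2 other filters, only the stages compared, a replicate block, a GC correction, no fold minimum and each library left out. The sex of single samples is not in the labels and was not used.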

Additional observations from a re-analysis of the deposited data

Results flagged for a closer look

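In 2 of the 35 groups of 4 libraries (5 members at 7 stages), 1 library lay apart from the other 3 by Dixon's criterion, the gap to its nearest neighbour being 0.968 and 0.839 of the group's range. Chance gives such a library in about 1 in 20 groups. Ntf3 was at 0.818 CPM in P14 replicate 1 and between 0.226 and 0.245 CPM in the other P14 libraries, which is 16 counts against 4 to 6. Ngfr was at 47.2 CPM in P60 replicate 2 and between 30.9 and 33.5 CPM in the other P60 libraries, all below the lowest P24 library (49.4 CPM).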

How the results depend on the processing

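Of the values recomputed under an alternative that left out no single library, 443 kept their direction and their call (adjusted p under 0.05 and at least 2-fold) or, for counts and ratios, their size, 28 moved, 3 became called and 0 reversed. Among uncalled differences under 2-fold, the adjusted p alone crossed 0.05 for Ngfr from P1 to P5 under the replicate block (0.0508) and for Ntrk2 over the last step without TMM scaling (0.0306). Without TMM scaling, Ntrk2 was called from E13 to E17 (-1.13) and Ntrk3 from E17 to P1 (-1.02), so that 2 members were called from E17 to P1, and the list counts became 2 from E17 to P1 and 5 from P1 to P5. With no filter, or with the GC trend removed, 2 list genes were called from E17 to P1, and 0 with only the 2 stages fitted. From P14 to P24, 1 list gene was called with only the 2 stages fitted, with the GC trend removed and by DESeq2, which also called Bdnf (log2 fold change 3.97) and so 1 member. With no fold minimum, members past the threshold were 2 from E17 to P1, 2 from P1 to P5, 4 from P5 to P14, 1 over P14 to P24 and 2 in the last step, and list genes 10, 6, 15, 1 and 7 in these steps and 33 from P1 to P60. With 2 counts added, the log2 ratio of Ntf3 to Bdnf was 4.05 at P14 and 3.13 at P24, against 5.76 and 3.87 with 0.5. Bdnf and Ntf3 are the members limited by depth. The cause of these shifts was not tested.

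With 1 library left out, by the same measure 582 values stayed, 17 moved, 10 lost a call and 7 reversed, the last all differences that had not passed the test. Those that stayed include differences of Ngfr under 2-fold whose adjusted p rose above 0.05, in 7 fits from P1 to P5 (0.0548 to 0.123) and in 2 over P14 to P24 (0.0571 to 0.0606). Log2 fold changes ran from -4.83 to -3.70 for Bdnf from P5 to P14, from -0.93 to 0.19 for Bdnf from P1 to P5, from -1.09 to -0.97 for Ngfr from P5 to P14, from -0.0164 to 1.14 for Ntf3 from P14 to P24, from -0.0867 to 0.00926 for Ntrk2 from E17 to P1, from -0.0875 to 0.00957 for Ntrk2 from P1 to P5, and from -1.07 to -0.95 for Ntrk3 from P1 to P5. Members called ran from 0 to 2 from P5 to P14 and from 0 to 1 from P1 to P5, and list genes from 0 to 2 from E17 to P1, from 0 to 1 over P14 to P24 and from 0 to 1 in the last step. Leaving out E13 replicates 1 and 4 together, chosen after seeing the data, left Ntf3, Ngfr and Ntrk3 called from E13 to E17 and gave 22 list genes.

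Replicate numbers name different animals at each stage. Same-numbered libraries of different stages correlated in their deviations from the stage means between -0.202 and 0.571 (median 0.084, 84 pairs). Libraries of different numbers and stages correlated between -0.472 and 0.256 (median -0.0404, 252 pairs). On average 17 of 28 libraries were closest to their own number, and what libraries of a number share was not tested. With the replicate number as a block, Ntf3, Ngfr and Ntrk3 were called from E13 to E17, and members called were 1, 1, 2, 0, 0 and 2 in the later comparisons, as without it, and list genes from P1 to P60 became 17 against 16.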
